A study of Mus musculus with 1 sample.

Results

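The 34 genes described here encode Eph receptors, their ephrin ligands, Slit ligands and Robo receptors, and netrins with the receptors DCC and UNC5. They were taken by symbol from a list drawn up with earlier results of these data known; no measured value entered the rule, and all 34 were among the 51912 genes listed in the table. Their levels came from droplet sc-RNA Seq, which reads the transcripts of single cells. The cells were from wild-type (WT) C57BL/6 cerebral cortex at P0, the day of birth. The data comprised 1 WT library, with no second genotype, treatment or time point in the comparisons, so that no replicate error could be given and no test between groups was run. Each captured transcript was counted once by its unique molecular identifier (UMI). Cells were sorted into gates by the UMIs of marker genes outside the 34, and every gate is named as "-like" because it rests on markers alone. The question was which of these ligands and receptors marked newborn neurons, the excitatory layers, interneurons, progenitors and glia.

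These proteins guide migrating neurons and growing axons. Ephrin-A ligands are anchored to the membrane by a lipid and bind mainly EphA receptor kinases, whereas ephrin-B ligands cross the membrane and bind mainly EphB receptors and EphA4, with signals that run into both the receptor-bearing and the ligand-bearing cell. Slits are secreted ligands that repel axons and neurons through Robo receptors, and netrins attract through DCC or repel through UNC5 receptors. In the developing cortex they are known for steering layer formation, interneuron migration and the routes of callosal, corticothalamic and thalamocortical axons.

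Promoter sequences were taken from the RefSeq table of build GRCm38.p6, which spans 250 bases before to 50 bases after each start. It held 34 promoters of 29 members, and had no entry for Unc5d, Dcc, Efnb3, Slit1 and Ntn1. The dinucleotide CG, counted on the printed strand, occurred a median of 22.5 times in the members' promoters (range 5 to 56), against a median of 7 over the 32544 promoters in the table, which include those of noncoding genes. The promoters of 4 genes are shown because their levels stood out in 4 different gates in the results that follow, with each CG in capitals. Unc5c (chr3:141465314-141465613, plus strand, 24 CG) was highest in the layer IV-like gate, Efna5 (chr17:62881268-62881567, minus strand, 38 CG) in layer V, Ephb1 (chr9:102354644-102354943, minus strand, 14 CG) in layer VI and Ntn4 (chr10:93640799-93641098, plus strand, 31 CG) in radial glia or astrocytes.
Unc5c: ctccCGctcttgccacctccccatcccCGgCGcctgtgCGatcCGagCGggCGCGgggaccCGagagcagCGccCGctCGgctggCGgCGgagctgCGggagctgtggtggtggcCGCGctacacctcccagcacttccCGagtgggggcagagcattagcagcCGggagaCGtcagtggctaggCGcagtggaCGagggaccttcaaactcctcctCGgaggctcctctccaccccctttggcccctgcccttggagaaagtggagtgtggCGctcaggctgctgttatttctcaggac
Efna5: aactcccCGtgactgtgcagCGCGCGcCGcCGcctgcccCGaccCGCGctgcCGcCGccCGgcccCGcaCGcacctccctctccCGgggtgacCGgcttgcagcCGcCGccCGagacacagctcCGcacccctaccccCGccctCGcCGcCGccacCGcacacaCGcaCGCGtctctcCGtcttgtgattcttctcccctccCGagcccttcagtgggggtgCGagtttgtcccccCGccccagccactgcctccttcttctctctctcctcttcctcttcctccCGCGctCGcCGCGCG
Ephb1: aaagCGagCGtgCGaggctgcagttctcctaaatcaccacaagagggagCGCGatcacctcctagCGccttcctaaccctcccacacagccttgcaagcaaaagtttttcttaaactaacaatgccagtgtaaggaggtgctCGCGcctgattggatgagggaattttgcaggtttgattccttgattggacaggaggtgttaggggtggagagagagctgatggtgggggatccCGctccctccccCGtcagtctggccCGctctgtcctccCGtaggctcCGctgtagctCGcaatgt
Ntn4: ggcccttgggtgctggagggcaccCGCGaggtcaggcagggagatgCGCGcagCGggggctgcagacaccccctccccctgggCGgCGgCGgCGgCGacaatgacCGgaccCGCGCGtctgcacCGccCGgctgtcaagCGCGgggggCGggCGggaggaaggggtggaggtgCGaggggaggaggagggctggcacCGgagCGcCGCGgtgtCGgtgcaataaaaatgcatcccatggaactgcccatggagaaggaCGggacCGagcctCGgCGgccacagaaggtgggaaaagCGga
The E-box CAGCTG, a palindrome, was present in 4 of the members' 34 promoters (11.8%) and in 16.4% of all promoters. The E-box CATCTG, searched on both strands, was present in 2 (5.88%) and in 17.1% of all. The TATA box TATAAA, also on both strands, was present in 2 (5.88%) and in 13.6% of all, and the homeodomain core TAATTA, a palindrome, in 3 (8.82%) and in 5.29% of all. None of these letters was found in the 4 promoters printed.

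The library held 90346034 UMIs in 11062 cells, with a median of 7197 UMIs per cell, and 11058 cells with at least 200 genes were kept. Of these, 7001 cells (63.3%) were placed in 1 of 17 gates, 144 met more than 1 lineage, and 3913 fell in no gate. A cell that met the limits of several layers was placed by a fixed order, given with the processing. The cells in no gate had a median of 1691 UMIs, and 1902 of them had fewer than 1000 genes. Among them, 2326 met the marker limit for excitatory neurons but were placed in no layer or newborn gate. They are absent from the levels of those gates. The 12 gates of at least 50 cells held between 67 cells (layer VIb) and 3147 cells (layer II/III). Their own markers were among the 10 leading genes of every gate. This follows in part from the gating, which used those markers, and is no independent check. The share of cells called doublets by Scrublet ran from 4.38% in layer II/III to 15.9% in the oligodendrocyte precursor gate. Glia and interneurons should lack the excitatory transcription factor Neurod6. Its level relative to the layer gates was 0.173 in radial glia or astrocytes, 0.269 in oligodendrocyte precursors, 0.208 in MGE and 0.354 in CGE interneurons (from the medial and caudal ganglionic eminences). In dividing progenitors it was 0.189. That gate also took dividing cells that met the newborn limits, and the source of its Neurod6 was not tested. The part of free RNA, doublets and gate errors in the members' levels was not tested. Levels are UMIs of a gene per 1000000 non-mitochondrial UMIs summed over the cells of a gate (CPM), and brackets give 95% intervals that cover counting error only.

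All 34 members had UMIs. In the gated cells 33 held at least 50, and only these were compared. The exception was Epha2, a receptor known from epithelia and vessels, with 21 UMIs in the library, of which 4 lay in the endothelial-like, 2 in the microglia-like and 2 in the radial glia or astrocyte gate. For 17 of these 33 members the interval of the ratio between the highest and the second highest of the 12 gates lay above 1. By the highest gate, 6 members led in newborn excitatory neurons, 2 in layer II/III, 5 in layer IV, 3 in layer V, 2 in layer VI, 3 in layer VIb, 3 in MGE interneurons, 2 in CGE interneurons, 4 in radial glia or astrocytes, 2 in oligodendrocyte precursors and 1 in dividing progenitors. These counts include leads whose interval held 1, such as both leads in oligodendrocyte precursors (Efna1 and Dcc). Neither the 17 members nor the counts by gate were set against the same counts over all genes. They are therefore no result about the members as a set. The leads of Efna1, Epha6, Ntn1 and Unc5b rested on few UMIs. Efna1, Unc5b and Ntn1 were higher in gates of fewer than 50 cells, described below. The 7 EphA receptors compared were spread over 4 gates, with 3 of them (Epha5, Epha7 and Epha10) highest in layer VIb.

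**Figure D1:**
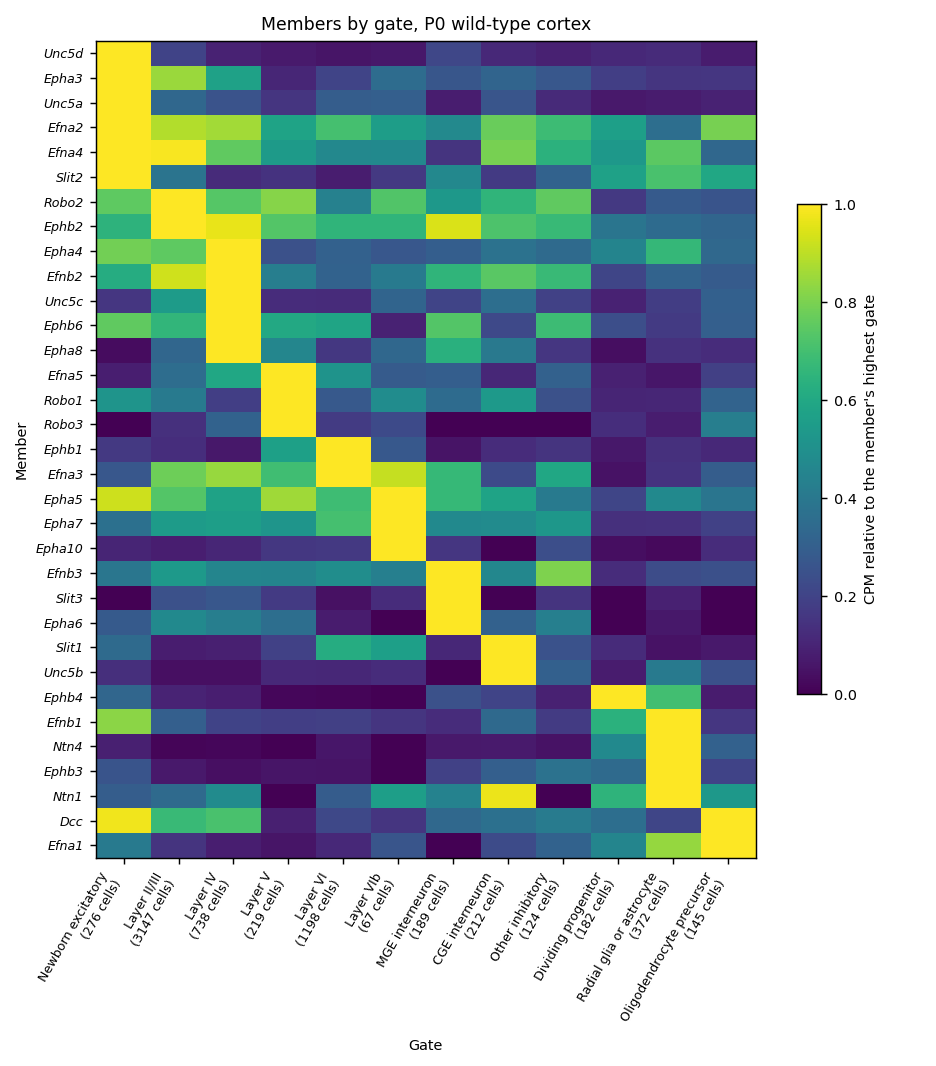
Level of each of the 33 members with at least 50 UMIs (rows) in the 12 gates of at least 50 cells (columns, with cell numbers), as CPM relative to the member's own highest gate (colour, 0 to 1). Rows are ordered by the highest gate; Unc5d, Ntn4 and Ephb1 were low in most other gates, whereas Epha5, Efnb2 and Ephb2 were spread over many.

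In newborn excitatory neuron-like cells (276 cells, gated on Eomes, Neurog2, Neurod1, Sstr2 and Mfap4), the UNC5 receptors Unc5d and Unc5a, the ligands Slit2 and Efnb1, and low-level Ephb3, Ephb4 and Ntn4 were higher than in the layer-gated neurons. Unc5d, a receptor for netrin and for the adhesion protein FLRT2, had a level of 357.5 CPM (332 to 384) in newborn cells. It was 72.6 CPM in layer II/III, 34.6 in layer IV, 25.7 in layer V, 19.6 in layer VI and 22.5 in layer VIb. Newborn cells thus stood alone, at 7.17 times the layer gates together (6.60 to 7.78) and 4.67 times the next gate, MGE interneurons at 76.5 CPM (ratio 3.80 to 5.80). An Unc5d UMI was found in 83.0% of newborn cells (78.0 to 87.2) and 32.0% of layer II/III cells (30.4 to 33.7); after each cell was thinned to 2000 UMIs the shares were 49.3% and 12.6%, against 4.86% in radial glia or astrocytes.

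Unc5a, a further netrin receptor of the repulsive type, was at 55.6 CPM in newborn cells (45.9 to 66.9) and between 8.56 CPM in layer V and 18.6 CPM in layer II/III, a ratio to the layer gates of 3.36 (2.74 to 4.09). Slit2, a secreted repellent, was at 28.6 CPM against 7.14 CPM, a ratio of 4.0 (2.99 to 5.28). The transmembrane ligand Efnb1 was at 149 CPM against 44.7 CPM, a ratio of 3.34 (2.95 to 3.76). These genes were not confined to newborn neurons, since Slit2 was at 20.4 CPM and Efnb1 at 180 CPM in radial glia or astrocytes. Ephb3 (4.46-fold, 14 UMIs), Ephb4 (4.72-fold, 8 UMIs) and Ntn4 (3.87-fold, 12 UMIs) rested on few UMIs in newborn cells. Their levels there were 6.89, 3.94 and 5.91 CPM, against 26.7, 8.35 and 66.45 CPM in radial glia or astrocytes.

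The members lower in newborn cells were Efna5, Efna3, Unc5c, Ephb1 and Epha8. Efna5, a lipid-anchored ephrin-A, was at 8.86 CPM (5.25 to 14.0) in newborn cells and 52.0 CPM in the layer gates, 5.87-fold lower (3.70 to 9.91). The ephrin-A Efna3 was 3.08-fold lower (2.15 to 4.57), the netrin receptor Unc5c 3.17-fold lower (2.45 to 4.17) and the ephrin-B receptor Ephb1 2.07-fold lower (1.69 to 2.56). For Unc5c and Ephb1 the pooled layers differed among themselves, as given below. Unc5c, at 29.05 CPM in newborn cells, was not below its level in layers V and VI. Ephb1, at 47.8 CPM in newborn cells, was not below its level in layers II/III and IV. Epha8 had 1 UMI in newborn cells and was 12-fold lower, with a wide interval (2.14 to 475). In all, 9 of 33 members were at least 2-fold higher in newborn cells, where 13.4% of the 15977 genes tested were, and 5 were at least 2-fold lower, where 12.5% of all genes were. Of the 9, Efna1 (3 UMIs) and Unc5b (2 UMIs) had intervals that held 1, and Unc5b was below 2-fold without doublets. The median log2 ratio was 0.30 over members and 0.09 over all genes. The inhibitory marker Gad2 was at 53.2 CPM in the newborn gate and 4.10 CPM in the layer gates, a ratio of 13.0 (10.2 to 16.4), with a UMI in 59 of the 276 cells. In the newborn cells without a Gad2 UMI, a setting chosen after the values were seen, Unc5d was 7.58-fold (6.92 to 8.28), Unc5a 3.44-fold, Slit2 4.21-fold and Efnb1 3.25-fold higher than in the layer gates, while Ephb1 was at 0.563 times (0.450 to 0.696) and no longer past 2-fold.

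Of 47 pathway partners tested, 1 was higher in newborn cells and 6 were lower. The partner that was higher was Dock1, an activator of Rac downstream of DCC, at 15.3 CPM against 0.417 CPM, 36.6-fold (20.8 to 65.2). Of the FLRT proteins, which bind UNC5 receptors, Flrt2 was at 0.236 times (0.155 to 0.344) and Flrt3 at 0.336 times the layer gates (0.252 to 0.439), whereas Flrt1 was at 0.844 times (0.647 to 1.08). Also lower were the adhesion protein Cntn1 at 0.210 times (0.140 to 0.302) and Ngef, an exchange factor that acts with EphA receptors, at 0.151 times (0.0182 to 0.55).

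Across the layers, the upper-layer gates (II/III and IV) carried more Unc5c, Epha3, Dcc, Unc5d, Epha4 and Efnb2, and the deep-layer gates (V, VI and VIb) more Ephb1 and Slit1. Ephb1, which binds ephrin-B ligands, was at 287.6 CPM (278 to 297) in layer VI, 163 CPM (152 to 175) in layer V and 79.7 CPM (63.7 to 98.5) in layer VIb. It was at 37.1 CPM in layer II/III and 18.3 CPM in layer IV, so that the intervals of all 3 deep gates lay above those of both upper gates. The deep gates together were 7.49 times the upper ones (7.04 to 7.98), and layer VI was 1.76 times layer V (1.63 to 1.91). An Ephb1 UMI was found in 87.8% of layer VI cells and 17.8% of layer IV cells, or 44.1% and 3.31% after thinning.

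Unc5c was the mirror of this order. It was highest in layer IV at 185 CPM (177 to 194), followed by layer II/III at 102 CPM (98.3 to 106) and layer VIb (interval 46.2 to 76.6 CPM), and it was at 23.8 CPM in layer V and 23.0 CPM in layer VI, 2 gates that did not differ beyond their intervals. The upper gates together were 4.84 times the deep ones (4.40 to 5.34). Epha3, a receptor for ephrin-A ligands, was at 193 CPM in layer II/III, 130 CPM in layer IV, 79.7 CPM in layer VIb, 46.6 CPM in layer VI and 24.6 CPM in layer V, and 4.14 times as high in the upper gates (3.84 to 4.46). Epha4, which binds both ephrin classes, was highest in layer IV at 392 CPM against 295 CPM in layer II/III and between 97.7 and 122 CPM in the deep gates, an upper-to-deep ratio of 2.78 (2.65 to 2.91). Its transmembrane ligand Efnb2 was at 211 CPM in layer IV, 196 CPM in layer II/III and between 66.5 and 90.4 CPM in the deep gates, a ratio of 2.70 (2.55 to 2.86).

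The netrin receptor Dcc was at 16.4 CPM in layer II/III and 17.2 CPM in layer IV, against 2.09 CPM in layer V, 5.27 CPM in layer VI and 3.75 CPM in layer VIb, 3.82-fold higher in the upper gates (3.02 to 4.89). Unc5d was 2.95-fold higher in the upper gates (2.65 to 3.29) and Slit2 3.12-fold (2.33 to 4.25). At low levels, Epha6 (3.13-fold, 1.78 to 5.95), Slit3 (3.11-fold, 1.64 to 6.49) and Ephb4 (6.93-fold, 2.22 to 34.9) were also higher there. Slit1 had the opposite order, at 24.6 CPM in layer VI and 22.5 CPM in layer VIb, 7.72 CPM in layer V, and 3.19 and 3.54 CPM in layers II/III and IV, 6.11-fold higher in the deep gates (4.98 to 7.53).

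Among the layer gates, layer V was marked by Efna5 and Robo1. Efna5 was at 107 CPM in layer V (98.4 to 117), 64.2 CPM in layer IV, 55.1 CPM in layer VI, 38.3 CPM in layer II/III and 30.9 CPM in layer VIb, and layer V was 1.67 times layer IV (1.49 to 1.88). The Slit receptor Robo1 was at 104 CPM in layer V (95.0 to 113) and at 50.6 CPM or less in the other layer gates. Among the gates of at least 50 cells, layer V was 1.86 times the next, CGE interneurons at 56.0 CPM (ratio 1.44 to 2.42). The striatal-type gate of 29 cells is outside this order. The inhibitory gates together held 172 Robo1 UMIs (45.5 CPM) with it and 141 (40.6 CPM) without it. Robo1 in the striatal-type cells was thus above the pooled inhibitory level, and layer V is not ranked against them. Robo2, the second Slit receptor, had another order, with 351 CPM in layer II/III, 287 in layer V, 259 in layer IV, 256 in layer VIb and 154 in layer VI. For Robo2 the upper gates together were 1.68 times the deep ones (1.62 to 1.75), and 2.26 times with equal weight per cell. Robo3, the divergent Robo, had 76 UMIs in the library; it was at 4.17 CPM in layer V and 0.462 times as high in upper as in deep gates (0.269 to 0.793), but 1.25 times as high (0.549 to 3.1) when the marker limits were doubled. Layer VIb, with 67 cells, led for Epha7 at 114 CPM against 80.7 CPM in layer VI (ratio 1.42, 1.16 to 1.71), and for Epha10, a receptor that lacks kinase activity, at 14.1 CPM (15 UMIs). Epha5 was at 746 CPM there and 690 CPM in newborn cells, a ratio whose interval held 1 (0.990 to 1.18).

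**Figure D2:**
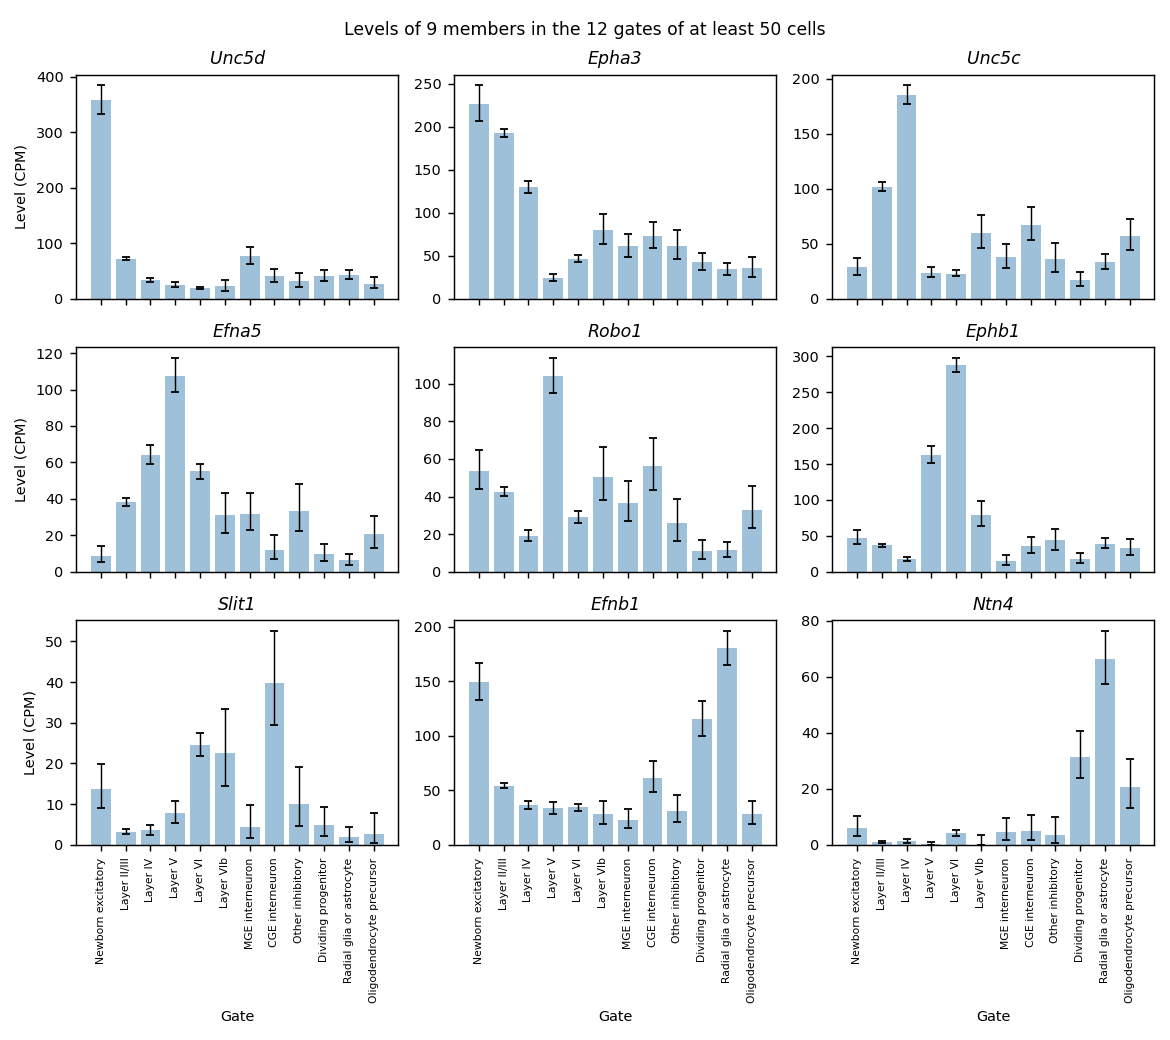
Level in CPM (y axis, from 0, its own scale in each panel) of 9 members in the 12 gates of at least 50 cells (x axis); bars are sums over the cells of a gate and error lines are 95% Poisson intervals for counting error. Unc5d peaked in newborn cells (357.5 CPM), Unc5c in layer IV, Efna5 and Robo1 in layer V, Ephb1 in layer VI (287.6 CPM), Slit1 in CGE interneurons and Ntn4 in radial glia or astrocytes, while Efnb1 had high bars both there and in newborn cells.

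By count, 10 of 33 members were at least 2-fold higher in the upper layers, where 5.59% of all genes were, and 6 were at least 2-fold lower, where 7.15% of all genes were. All 16 intervals lay on 1 side of 1. The other lower members were Ntn4, Unc5b, Epha10 and Robo3, none above 3.02 CPM over the deep gates together, and Epha10 went from 0.420 to 0.552 times when the marker limits were doubled. The median log2 ratio was 0.41 over members and -0.02 over all genes, and 22 of the 33 had a ratio above 1. The 3 DCC and UNC5 receptors called higher were Dcc, Unc5c and Unc5d, and 0 of the 5 ephrin-A genes were past 2-fold in either direction. Among these, Efna4 came nearest, at 1.91-fold higher in the upper gates (1.67 to 2.20). It passed 2-fold in 2 other settings, at 2.17-fold (1.86 to 2.55) without doublets and 2.01-fold with equal weight per cell. The receptor Epha8, at 1.99-fold (1.51 to 2.66), passed 2-fold without doublets (2.05), with doubled marker limits (2.62) and with equal weight per cell (2.49). Of 47 partners, 4 were higher and 5 lower. Lrig3 was 14.1-fold higher in the upper gates (3.74 to 119) and Flrt3 3.52-fold higher (3.21 to 3.86), while the DCC relative Neo1 was 2.23-fold higher (2.11 to 2.36). Ntng1, a netrin-G that is anchored to the membrane and does not bind DCC, was at 0.0799 times (0.0569 to 0.110), and its relative Ntng2 was 7.21-fold higher (3.82 to 15.3). The adaptor Nck1 was at 0.211 times (0.177 to 0.25), Ngef at 0.242 times (0.194 to 0.301) and Flrt2 at 0.406 times (0.379 to 0.435).

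**Figure D3:**
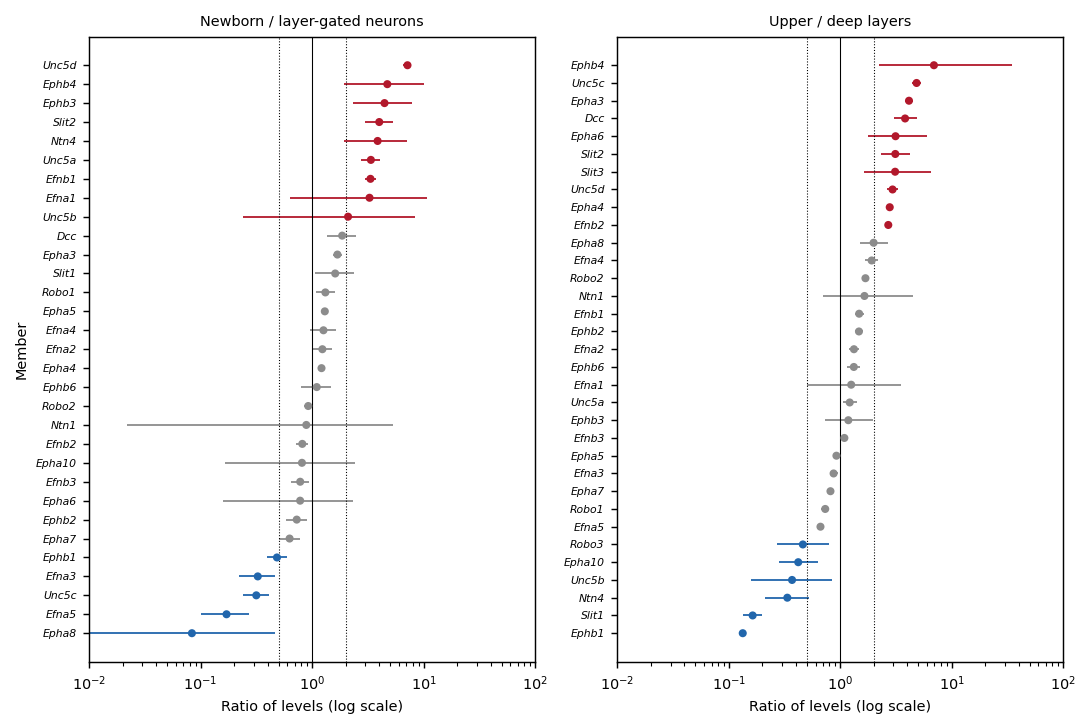
Ratio of levels (x axis, log scale) of each member with its 95% counting interval (lines), newborn over layer-gated neurons (left) and upper over deep layers (right); red marks ratios of at least 2, blue of at most 0.5, grey the rest, and dotted lines the 2-fold limits. Unc5d at 7.17 and Ephb1 at 0.133 lay clear of the limits with short intervals, while Ephb4 and Epha8 had long ones; intervals are clipped at the axis ends.

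The layer II/III gate was the largest, and it was divided further by Igfbpl1, a gene known from immature neurons; this split was chosen after its values had been seen. After thinning to 2000 UMIs, 2110 cells had an Igfbpl1 UMI and 972 had none. Unc5d was at 124 CPM in cells with Igfbpl1 and 18.2 CPM in those without, 6.83-fold (4.82 to 9.97). Slit2 was at 17.8 CPM and 3.21 CPM, 5.54-fold (2.42 to 15.6). For these 2 members, higher in the upper than in the deep gates, the cells without Igfbpl1 were near the unthinned deep-gate levels, 21.4 CPM for Unc5d and 2.91 CPM for Slit2. The deep gates were not divided by Igfbpl1, so a part is set here against whole gates. Slit2 had 6 UMIs in the cells without Igfbpl1. Robo1 was at 63.2 and 29.4 CPM, 2.15-fold (1.60 to 2.93), and Efnb1 at 74.0 and 36.3 CPM, 2.04-fold (1.56 to 2.69). In the other direction, Efna5 was at 15.1 CPM with and 54.0 CPM without, 3.59-fold lower (2.59 to 5.01), and Epha7 at 43.7 and 87.7 CPM, 2.01-fold lower (1.61 to 2.50). Unc5d, Slit2 and Efnb1 were also among the members higher in newborn cells, and Efna5 among those lower.

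Sstr2, 1 of the newborn markers, was 5.13-fold higher in the cells with Igfbpl1 (3.16 to 8.83). The newborn markers Neurog2 (11 UMIs with, 1 without; ratio 5.08, 0.738 to 219) and Eomes (3 UMIs with, 1 without; ratio 1.38, 0.111 to 72.7) had intervals that held 1. Of 21 members with at least 50 UMIs in these cells, 4 were past 2-fold higher, where 2.54% of 9225 genes were, and 2 lower, where 2.73% of genes were. On the log2 scale the median ratio was 0.12 over members and 0.04 over all genes. Unc5c (0.783 times), Efnb2 (0.938 times) and Epha4 (0.869 times) stayed near 1. Of the other members higher in the upper layers, Epha3 was 1.91-fold (1.67 to 2.20) and Dcc 1.43-fold (0.871 to 2.42) higher in cells with Igfbpl1. Ephb1, higher in the deep layers, was 1.98-fold higher (1.45 to 2.745). When the same cells were divided by Lmo4, also chosen after values were seen, Epha7 was 2.46-fold (1.95 to 3.13) and Efna5 1.89-fold (1.36 to 2.65) higher in the 1479 cells with it than in the 1603 without, while Unc5d was at 0.632 times (0.527 to 0.755).

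**Figure D4:**
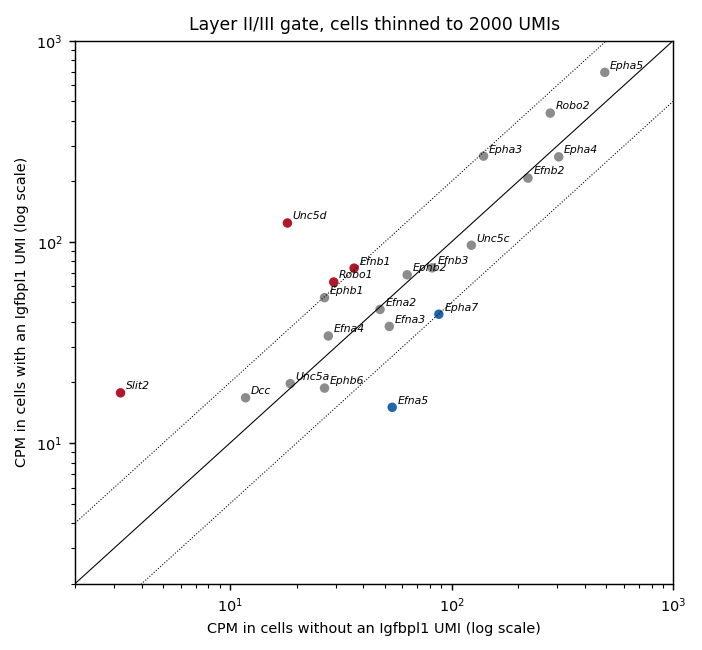
CPM of 21 members in layer II/III-like cells with (y axis) against without (x axis) an Igfbpl1 UMI, both log scales, cells thinned to 2000 UMIs; the solid line marks equal levels and dotted lines the 2-fold limits, with red above and blue below them. Unc5d and Slit2 lay farthest above the diagonal and Efna5 farthest below.

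Inhibitory neuron-like cells, taken here as the MGE, CGE, striatal-type and other inhibitory gates together, had more Slit1 and, at low levels, Slit3, Ntn4, Unc5b, Ephb3 and Ephb4 than the layer-gated neurons, and less Epha3, Ephb1 and Efna5. Epha3 was at 60.8 CPM against 134 CPM, 2.21-fold lower (1.94 to 2.53), Ephb1 was 2.20-fold lower (1.89 to 2.58) and Efna5 2.11-fold lower (1.72 to 2.63). Slit1 was 2.07-fold higher (1.58 to 2.68), a ratio of 1.94 in cells with at least 1000 genes. Single layers differed from the pooled layers, as given above. Epha3 in inhibitory cells was above its level in layers V and VI. Ephb1, at 45.0 CPM, was not below layers II/III and IV, and at 29.95 CPM without the striatal-type cells it was still above layer IV. Slit1, at 17.7 CPM, was not above layers VI and VIb. Ephb3 was at 7.14 CPM against 1.55 CPM, 4.62-fold higher (2.89 to 7.17). Unc5b (12 UMIs), Ntn1 (11 UMIs) and Ephb4 (8 UMIs) had few counts. Ephb4 went from 2.54-fold to 1.23-fold without doublets, where Ntn1 no longer had the 50 UMIs needed for a comparison, and Ntn4 went from 2.60-fold to 1.69-fold (0.744 to 3.40) with doubled marker limits. Unc5a was also past 2-fold lower, but went from 0.496 times to 0.524 without doublets, 0.566 with doubled limits and 0.839 when cells were averaged with equal weight. Ntn1 was also past 2-fold, at 5.23-fold (2.38 to 10.7), but 8 of its 11 UMIs lay in the 29 striatal-type cells. Without these cells, a setting chosen after the values were seen, Ntn1 was 1.55-fold (0.305 to 4.97), Unc5a at 0.523 times and Ephb1 at 0.303 times (0.247 to 0.368) the layer gates. Other members were uneven among the inhibitory gates, since 49 of 67 Slit1 UMIs and 9 of 12 Unc5b UMIs lay in CGE cells and 10 of 15 Slit3 UMIs in MGE cells, and Slit1 in MGE cells, at 4.46 CPM (1.64 to 9.71), was not higher than the 8.56 CPM of the layer gates. Unc5c had a ratio of 0.508 (0.435 to 0.590), which was 0.308 without doublets. Epha4, at 0.608 times (0.559 to 0.660), passed 2-fold lower in 3 other settings, at 0.478 times without doublets (0.428 to 0.533), 0.468 times with doubled marker limits (0.418 to 0.522) and 0.479 times with equal weight per cell. In all, 7 of 33 members were higher, where 8.29% of all genes were, and 4 lower, where 5.71% of all genes were. Members had a median log2 ratio of -0.15 and all genes of 0.05. Neurod6 had a ratio of 0.275 in this comparison. Of 47 partners, 4 were higher, with Dock1 at 4.44-fold (1.62 to 10.6) and Grip1, a scaffold that binds ephrin-B and Eph proteins, at 3.58-fold (3.25 to 3.94), and 2 were lower, Lingo1 and Ntng2.

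Between the MGE and CGE interneuron-like classes, Slit1, Slit3, Efna4 and Efnb3 were among the ligands that differed past 2-fold. Slit1 was at 39.8 CPM in CGE (29.4 to 52.6) and 4.46 CPM in MGE interneurons (1.64 to 9.71), 8.91-fold (3.82 to 25.5), and CGE was the highest of the 12 gates. Slit3 had 10 UMIs in MGE and 0 of its UMIs in CGE interneurons, at least 3.05-fold higher against a floor of 3 counts in the gate, where the counting interval of the ratio began at 2.05. Efnb3, a transmembrane ephrin-B, was at 150 CPM in MGE (130 to 172) and 69.8 CPM in CGE interneurons, 2.15-fold (1.66 to 2.80), and 1.71-fold when cells were averaged with equal weight. Efna3 was 2.99-fold (1.65 to 5.75), Efna5 2.63-fold (1.43 to 5.09), Slit2 2.75-fold (1.05 to 8.46) and Ephb6, a receptor without kinase activity, 3.32-fold (1.48 to 8.41) higher in MGE cells. Unc5d, at 1.85-fold, passed 2-fold without doublets, at 2.245-fold (1.43 to 3.63). In the other direction, Unc5c went from 0.563 times to 0.415 times (0.230 to 0.727) in that setting.

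On the CGE side, Efna4 was at 23.5 CPM against 4.46 CPM, 5.28-fold higher than in MGE cells (2.15 to 15.5), Efnb1 2.68-fold (1.74 to 4.21), Ephb1 2.46-fold (1.42 to 4.39; MGE over CGE 0.407, or 0.506 with doubled marker limits) and Unc5a 3.27-fold (1.25 to 10.1). Unc5b had 9 UMIs in CGE and 0 in MGE cells, at least 3.27-fold higher against the same floor, with a counting interval from 2.15. Neurod6 was itself 0.589 times as high in MGE as in CGE cells (0.493 to 0.701). Of 33 members 7 were higher in MGE cells, where 8.52% of all genes were, and 7 were lower, where 10.3% of all genes were; the intervals of Epha6 and Ntn1 held 1. Members had a median log2 ratio of -0.16 and all genes of -0.07. Of 47 partners, 4 were higher and 6 lower in MGE cells, with Cntn1 at 4.08-fold (2.71 to 6.33), Nck1 at 2.86-fold (1.63 to 5.26) and Flrt2 at 2.83-fold (2.0 to 4.07). Among the lower ones, Ntng1 was at 0.102 times (0.0114 to 0.425, 2 UMIs in MGE cells), Flrt3 at 0.207 times (0.122 to 0.335), Flrt1 at 0.223 times (0.130 to 0.368) and Sipa1l1 at 0.292 times (0.196 to 0.426). The other inhibitory gate (124 cells) took cells that met the limits of both classes or of no inhibitory class. It was not the highest gate for any member by summed UMIs, but was for Epha8 and Efna2 when cells were averaged with equal weight.

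Progenitor- and glia-like cells had more of a small set of members than neurons, among them Ntn4, Ephb3, Ephb4 and Efnb1, and less of most others. The neurons of this comparison were the layer and inhibitory gates, without the newborn gate. Ntn4, a secreted netrin found in basement membranes, was at 66.4 CPM in radial glia or astrocytes (57.5 to 76.4), 31.5 CPM in dividing progenitors (23.9 to 40.8) and 20.5 CPM in oligodendrocyte precursors (13.0 to 30.8). It was at 5.91 CPM in newborn cells, at 4.87 CPM or less in the layer and named interneuron gates, and at 0 UMIs in layer VIb. Progenitors and glia together were 28.0 times these neurons (22.3 to 35.5), and 25.9 times (20.8 to 32.5) with newborn cells among the neurons. An Ntn4 UMI was found in 36.0% of radial glia or astrocytes (31.1 to 41.1) and 0.763% of layer II/III cells, or 9.43% and 0.130% after thinning. The ephrin-B receptor Ephb3 was at 26.7 CPM in radial glia or astrocytes and 9.15 times as high in progenitors and glia as in neurons (6.95 to 12). Ephb4, known from veins, was 8.83-fold higher (5.88 to 13.2). Of the 12 larger gates it was highest in dividing progenitors at 12 CPM, but the ratio to radial glia or astrocytes had an interval that held 1 (0.770 to 2.65).

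Efnb1 was at 180 CPM in radial glia or astrocytes (165 to 196), 149 CPM in newborn cells and 115 CPM in dividing progenitors (100.3 to 132), against 28.6 CPM in oligodendrocyte precursors and 23.0 CPM in MGE interneurons, its lowest gate. Radial glia or astrocytes were 1.21 times newborn cells (1.05 to 1.40), and progenitors and glia together 2.96 times the neurons (2.73 to 3.21). Slit2 was 2.55-fold higher in progenitors and glia (2.05 to 3.14), and 1.96-fold when cells were averaged with equal weight. Its highest gate was the newborn one, at 28.6 CPM, but the ratio to radial glia or astrocytes had an interval that held 1 (0.962 to 2.04). With newborn cells among the neurons, the ratio of progenitors and glia to neurons was 2.33 (1.88 to 2.87). Efna1 (16 UMIs) was 5.89-fold and Unc5b (12 UMIs) 3.17-fold higher. Epha4 and Epha5 were at 260 and 354 CPM in radial glia or astrocytes, with ratios of progenitors and glia to neurons of 0.847 and 0.537. Without doublets Epha5 passed 2-fold lower, at 0.490 times (0.462 to 0.519).

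In the other direction, 18 of 33 members were at least 2-fold lower in progenitors and glia, where 16.8% of all genes were, and 7 were at least 2-fold higher, where 20.3% of all genes were. Among the lower ones, Efna3 was at 7.89 CPM against 44.3 CPM, 5.61-fold lower (4.21 to 7.66), Efna5 4.99-fold lower (3.87 to 6.56), Epha7 3.89-fold lower (3.20 to 4.78), Unc5a 3.67-fold lower (2.49 to 5.64), Epha3 3.48-fold lower (3.05 to 4.0) and Robo2 3.31-fold lower (3.03 to 3.63). Epha6 (1 UMI) had the lowest ratio, 0.0852, and Slit3 (2 UMIs) had a ratio of 0.206, both on few counts. The ratio of Neurod6 in the same comparison was 0.205 (0.192 to 0.219). Of the 18, 10 had an interval above that ratio, and 3 members had a ratio at or below it. The median log2 ratio was -1.35 over members and 0.05 over all genes. Of 47 partners, 6 were higher and 16 lower, with Dock1 at 118-fold (81.9 to 177), Ntng1 at 9.69-fold (8.29 to 11.3) and Rhoa at 3.22-fold (3.07 to 3.38) among the higher and Lingo1 at 0.256 times (0.223 to 0.293) among the lower.

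**Figure D5:**
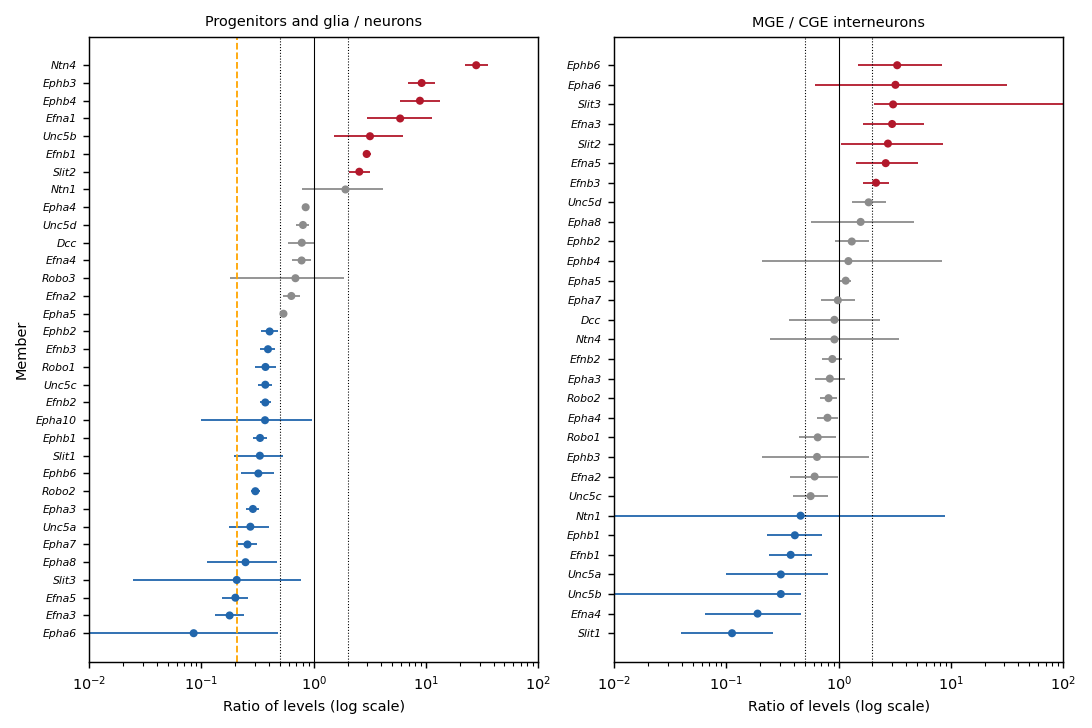
Ratio of levels (x axis, log scale) of each member with its 95% counting interval (lines), progenitors and glia over neurons (left) and MGE over CGE interneurons (right); colours and dotted lines mark the 2-fold limits, and intervals are clipped at the axis ends. The dashed orange line is the ratio of Neurod6 (0.205); Ntn4, Ephb3 and Ephb4 lay far above 1, and most EphA and Robo genes lay between the orange line and 1. Slit3 and Unc5b, with 0 UMIs in 1 of the interneuron gates, are drawn at their floor.

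Oligodendrocyte precursor-like cells (145 cells) had more Dcc and Robo1 than radial glia or astrocytes, and less Efnb1, Ntn4 and Ephb3. Dcc was at 24.1 CPM (27 UMIs) against 5.01 CPM, 4.81-fold (2.47 to 9.73), and newborn cells were at 23.6 CPM, a ratio whose interval held 1 (0.612 to 1.67). Robo1 was at 33.0 CPM against 11.4 CPM, 2.91-fold (1.78 to 4.78). Efnb1 was at 28.6 CPM against 180 CPM, 6.31-fold lower (4.42 to 9.32), Ntn4 3.23-fold lower (2.10 to 5.22), Ephb3 4.99-fold lower (2.19 to 14.0), Ephb4 (1 UMI) 9.35-fold lower (1.53 to 384) and Efna4 2.24-fold lower (1.18 to 4.71), at 0.446 times, or 0.776 times when cells were averaged with equal weight. The precursor gate had the highest doublet share, and Neurod6 was 1.55 times as high there as in radial glia or astrocytes.

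Without doublets, Efna5 went from 3.24-fold to 1.03-fold (0.179 to 4.12) and Efna3 from 2.01-fold to 1.03-fold. The members at least 2-fold lower went from 5 to 11, but the share of all genes lower without doublets is not given here. Among these members, Epha4 was at 0.294 times (0.222 to 0.383), Efnb2 at 0.480 times, Robo2 at 0.428 times and Ephb1 at 0.398 times the level in radial glia or astrocytes. With doublets kept, 7 of 33 members were higher, where 13.3% of all genes were, and 5 lower, where 12.1% of all genes were; Efna2 was 2.20-fold higher (1.43 to 3.38), and the intervals of Epha10 and Robo3, with 2 UMIs each, held 1. The median log2 ratio was -0.10 over members and 0.07 over all genes. Of 47 partners, 13 were higher and 2 lower, with Cntn1 at 19.6-fold (14.7 to 26.4) and Dscam, a netrin receptor, at 14.1-fold (8.56 to 24.4) among the higher, and Ntng1 at 0.103 times (0.0466 to 0.200) and Rhoa at 0.445 times (0.384 to 0.514) as the lower.

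The 5 gates of fewer than 50 cells held high levels of some members. Efna1, the ephrin-A known from endothelium, was at 143 CPM in endothelial-like cells (103 to 194, 41 UMIs in 22 cells), against 6.60 CPM in mural-like cells (1 UMI) and at most 3.57 CPM in the 12 larger gates. Unc5b, a vascular netrin receptor, was at 125 CPM in mural-like cells (75.5 to 196, 19 UMIs), 63.3 CPM in Cajal-Retzius-like cells (44.3 to 87.6) and 41.9 CPM in endothelial-like cells (21.6 to 73.1), and at most 7.30 CPM in the larger gates. Cajal-Retzius-like cells (35 cells) had the highest Robo2 level of all gates, 489 CPM (433 to 550), and striatal-type inhibitory cells (29 cells) the highest Epha7 level, 168 CPM (125 to 220), with Ephb1 at 213 CPM (165 to 271) and Epha8 at 48.4 CPM (27.1 to 79.9). In these cells Epha4 was at 400.5 CPM (333 to 478), next to 392 CPM in layer IV. Microglia-like cells (23 cells, median 2126 UMIs) held too few UMIs for the members to be ranked.

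The remaining members varied less or had no gate that stood apart. Ephb2 was at 63.0 CPM in layer II/III and 61.0 CPM in layer IV, a ratio whose interval held 1 (0.942 to 1.13), and 3.07 times its lowest of the 12 gates, the oligodendrocyte precursors at 20.5 CPM. Efna2 was at 47.3 CPM in newborn cells and 41.8 CPM in layer II/III, and 2.78 times its lowest gate, the radial glia or astrocytes. Efna4 was at 29.5 CPM in newborn cells and 29.3 CPM in layer II/III. Of the 12 larger gates, Ephb6 and Epha8 were highest in layer IV, at 29.4 and 14.0 CPM, each with an interval to the second gate that held 1. Efna3 was at 54.5 CPM in layer VI and 49.7 CPM in layer VIb, again within the interval. Epha6 was at 5.20 CPM in MGE interneurons (7 UMIs), and Ntn1, the netrin known from the midline, had 73 UMIs in the library and at most 1.67 CPM in the larger gates, too few for an order; it reached 25.8 CPM in striatal-type (8 UMIs) and 33.0 CPM in mural-like cells (5 UMIs).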

How the data were processed

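The authors deposited unnormalized UMI counts, by gene and by cell, and a table of UMI and gene totals per cell. Per the labels, the submitters' processing notes name STAR, Cell Ranger 2, Seurat and mm9, with no role; the settings of alignment and counting are not given in the sources used here. The clustering settings in the methods of the study apply after these counts. Both totals matched the count table in all 11062 cells. A cell needed at least 200 genes to be kept.

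Gates required a minimum number of detected markers (2 to 4) and of marker UMIs per 10000 (3 to 10), set on the markers alone (19 lists, 117 symbols). A cell that met several layer limits went to the first it met in the order VIb, VI, V, IV and II/III. Layer II/III also required fewer than 3 detected markers of layer V and of layer VI, a limit that depends on depth. Layer V also required a Fezf2 or Bcl11b UMI, and the newborn gate an Eomes or Neurog2 UMI. Members, marker lists and partner lists were chosen with earlier results of these data known. UMIs were summed per gate and divided by non-mitochondrial UMIs. Ratios were computed over all genes with at least 50 UMIs in gated cells and called at 2-fold; no test was run, since 1 library gives no replicate error. A gene at 0 UMIs on 1 side was set to 3 counts and taken as a bound in that direction only. Intervals (95%) are exact Poisson, exact conditional binomial and, for shares, Clopper-Pearson, and cover counting error only. Shares were repeated after thinning to 2000 UMIs, which left out between 0 and 65 cells per gate. Doublets (668 cells, Scrublet) were kept, and removed as an alternative. The ratio step was tested on simulated data. All 34 members are accounted for; per comparison at most 8 past 2-fold either way, and at most 4 of the listed partners either way, were named by size of ratio, with further members' values beside them. Python 3.11.15, numpy 2.4.6, scipy 1.17.1, pandas 2.3.3, scanpy 1.11.5 and igraph 0.11.9 were used.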

Additional observations from a re-analysis of the deposited data

How the results depend on the processing

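No paired analysis was possible because a single WT sample was analysed. The settings tried were cells with at least 1000 genes, removal of doublets, doubled marker limits, mitochondrial genes in the totals, equal weight per cell, genes with at least 10 UMIs, thinning, and Louvain clusters in place of gates. Ratios of called members left the interval of the value reported, on the same side of 1, in 24 of 90 cases without doublets, 21 of 92 with equal weight per cell and 15 of 91 with doubled limits, and in 0 of 92 with either at least 1000 genes or mitochondrial genes in the totals; 1 crossed 1, Robo3 in upper against deep layers at 1.25 under doubled limits. Ratios were not recomputed for clusters or after thinning. The count of members lower in oligodendrocyte precursors than in radial glia or astrocytes was 11 without doublets. The share of all genes in that setting is not given here. Thinning set the shares of cells with a UMI to 49.3% for Unc5d in newborn cells, 26.3% for Unc5c in layer IV, 14.8% for Efna5 in layer V, 44.1% for Ephb1 in layer VI, and 29.1% for Efnb1 and 9.43% for Ntn4 in radial glia or astrocytes, by its construction. The other counts of members past 2-fold stayed within 1.5 times under the 6 settings other than thinning and clusters. The highest gate was the one reported for between 29 and 34 of 34 members under the alternatives on cells and totals, and for 24 with 25 Louvain clusters, none of which took the name of layer IV. The cause of these differences was not tested. Alternatives for the Igfbpl1 split were chosen after seeing the data and gave 4 or 5 members higher and 2 or 3 lower. Also chosen then, leaving out striatal-type cells gave 6 members higher and 3 lower in inhibitory neurons, newborn cells among the neurons gave 7 and 18 in progenitors and glia, and newborn cells without a Gad2 UMI gave 9 and 4. For the settings chosen after seeing the data, the shares of all genes past 2-fold are not given here. These counts of members thus have no baseline. With 1 library, differences between animals could not be measured, and members under about 10 UMIs in a gate cannot be ordered at this depth.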
